A study of Homo sapiens with 6 samples.

Results

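The CMG complex is the helicase that unwinds DNA ahead of the replication fork. It is built from CDC45, the ring of MCM2 to MCM7, and the GINS tetramer. The genes described here were *MCM2*, *MCM3*, *MCM4*, *MCM5*, *MCM6*, *MCM7*, *CDC45*, *GINS1*, *GINS2* and *GINS4*, chosen by name as subunits of the complex. Earlier results of these data were known when the set was chosen, so counts of its members are not independent support. All 10 were found among the 63677 genes of the count table, and all 10 were among the 12507 genes with enough reads to be tested. The fourth GINS subunit, *GINS3*, was not in the set and is described with the related genes.

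The RNA came from cells labelled LoVo, an established human colorectal cancer cell line. One condition received both siRNAs against *SNHG15*, a long noncoding RNA whose gene also hosts a small nucleolar RNA, and the control condition received a scramble siRNA. Each *SNHG15* siRNA alone was not sequenced in these samples. Both conditions were transfected with a lipid reagent at 25 nM siRNA and collected after 48 h. Messenger RNA was sequenced as 75 bp paired-end reads in 3 libraries for each condition. The study's methods call the 3 samples of a condition biological replicates, and the labels do not say how they were separated.

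The MCM ring is loaded onto origins as an inactive double hexamer in G1 by the origin recognition complex, CDC6 and CDT1. In S phase, CDC45 and GINS join the ring and turn it into an active helicase that travels with the polymerases until the complex is taken apart at termination. Transcription of these genes is known to rise towards S phase under E2F factors, and MCM proteins are widely used as markers of proliferating cells. In RNA from a whole culture, fewer cells in a phase and less RNA per cell cannot be told apart. By flow cytometry, the study reports no significant change in the cell cycle profile of LoVo cells after *SNHG15* knockdown. It also reports that the knockdown lowered proliferation and colony formation of these cells. Its pathway analysis of the changed genes lists chromosomal replication among the pathways. The share of cells in each phase was not tested in the RNA libraries described here.

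Levels are given as CPM, the counts of a gene scaled to a common library size and corrected for library composition, and a fold change is the log2 of the *SNHG15* siRNA level over the scramble level. A gene is called changed where the adjusted p of edgeR's quasi-likelihood test (Benjamini-Hochberg, over all genes tested) was below 0.05. Library totals lay between 3446922 and 10256710 counts, with the lowest in scramble replicate 3. The targeted *SNHG15* had 290, 277 and 261 CPM with scramble siRNA and 77.2, 83.1 and 87.2 CPM with *SNHG15* siRNA. That left 29.9% of its scramble level (log2 fold change -1.74, SE 0.12, adjusted p = 2.6e-05 by edgeR). Of 8 intestinal epithelial markers, *KRT20*, *VIL1* and *CDH17* had 0 counts in every library, and *EPCAM*, the general epithelial adhesion molecule, had at most 1. *CDH1* had 22 to 86 counts, *KRT18* 76 to 235, *CDX2* 96 to 284 and *KRT8* 166 to 493. The summed level of the list was 102 to 110 CPM in scramble and 106 to 117 CPM in siRNA libraries. Several defining epithelial markers were therefore absent from libraries labelled LoVo, in both conditions alike. Summed fibroblast, leukocyte and endothelial markers did not exceed 1.24 CPM in any library; *PECAM1* was not matched.

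Start-site sequence gives one feature that the choice of the genes did not use. RefSeq promoters, from 250 bases before to 50 bases after a start site on GRCh38.p14, were matched for 7 of the 10 genes, and *MCM4*, *MCM5* and *GINS4* had no entry. They were searched on both strands for 4 E2F-type 8-letter words, TTTCCCGC, TTTCGCGC, TTTGCCGC and TTTGGCGC, of which pairs on opposite strands can overlap. At least 1 was present in 6 of the 7 genes, against 4.0% of 27305 genes in the table. The windows of 30 bases are shown because these letters lie close to the start site in most of them, with the E2F-type letters in capitals and each sequence read 5′ to 3′ on the strand of its gene.
MCM2, chr3:127598401-127598430, plus strand: acgtgaaccactTTTCGCGCGAAAcctggt
MCM3, chr6:52284728-52284757, minus strand: agttcggaagtTTTCGCGCcggggtggagt
MCM6, chr2:135876576-135876605, minus strand: gggctttgcaTTTGGCGCGAAAtccctttc
MCM6, chr2:135876514-135876543, minus strand: attggtcaggTTTGGCGCGAAAtctccagc
MCM7, chr7:100101398-100101427, minus strand: ccggtcacgtggggggcgacgTTTCGCGCc
GINS1, chr20:25407661-25407690, plus strand: ttggctagctttgttcgGCGCCAAAgcgcg
GINS2, chr16:85688970-85688999, minus strand: gggctctcgccgtgGCGGGAAAacggcggc

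In *MCM2* and in both *MCM6* windows a word on the printed strand overlaps a word on the opposite strand. The *MCM2* stretch reads the same on both strands, and those of *MCM6* do not. *CDC45* held none of these words in its promoters. It carried the CCAAT letters instead, shown in capitals in a stretch that begins 120 bases before its start site.
CDC45, chr22:19479800-19479829, plus strand: ggccgcctCCAATgtggcCCAATcagaaag

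CCAAT or its complement was common in general, with 39.7% of genes holding it, and it was present in 6 of the 7 genes, all but *MCM2*. The E-box letters CACGTG were present in *MCM2* and *MCM7*, against 8.8% of genes. A match says only that the letters are there.

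Fitted levels were lower with *SNHG15* siRNA in 9 of the 10 genes, where 49.9% of all genes had a fold change below 0. Past the threshold, *CDC45*, *MCM4* and *GINS2* fell. No member rose past it by edgeR or by DESeq2, where 3.13% of all genes were called higher, and none was higher at an unadjusted p under 0.05. The count of 3 of 10 stands beside 5.36% of all genes tested that were called in either direction and 2.23% that were called lower. In 6 of the 10 genes the conditions did not overlap, always with the siRNA libraries lower. Of all genes, 28.8% did not overlap, and 14.1% did so with the siRNA libraries lower. An unadjusted p under 0.05 was reached by 6 members, against 22.5% of all genes. The number called was 1 without scramble replicate 1, scramble replicate 3 or siRNA replicate 2, 2 without scramble replicate 2 or siRNA replicate 3, and 5 without siRNA replicate 1. The share of all genes called moved in the same fits. It was 1.57%, 1.1% and 2.06% without scramble replicates 1, 2 and 3. Without siRNA replicates 1, 2 and 3 it was 6.34%, 2.78% and 5.27%.

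The members' median log2 fold change was -0.34, and the median over all genes tested was 0.00. Of all genes tested, 13.2% had a fold change at or below that member median, so the typical member sat in the lower part of the whole distribution but not at its edge. *GINS4* stood apart from the other 9 genes, which ran from 60.1% of the scramble level in *CDC45* to 90.6% in *GINS1*.

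**Figure D1:**
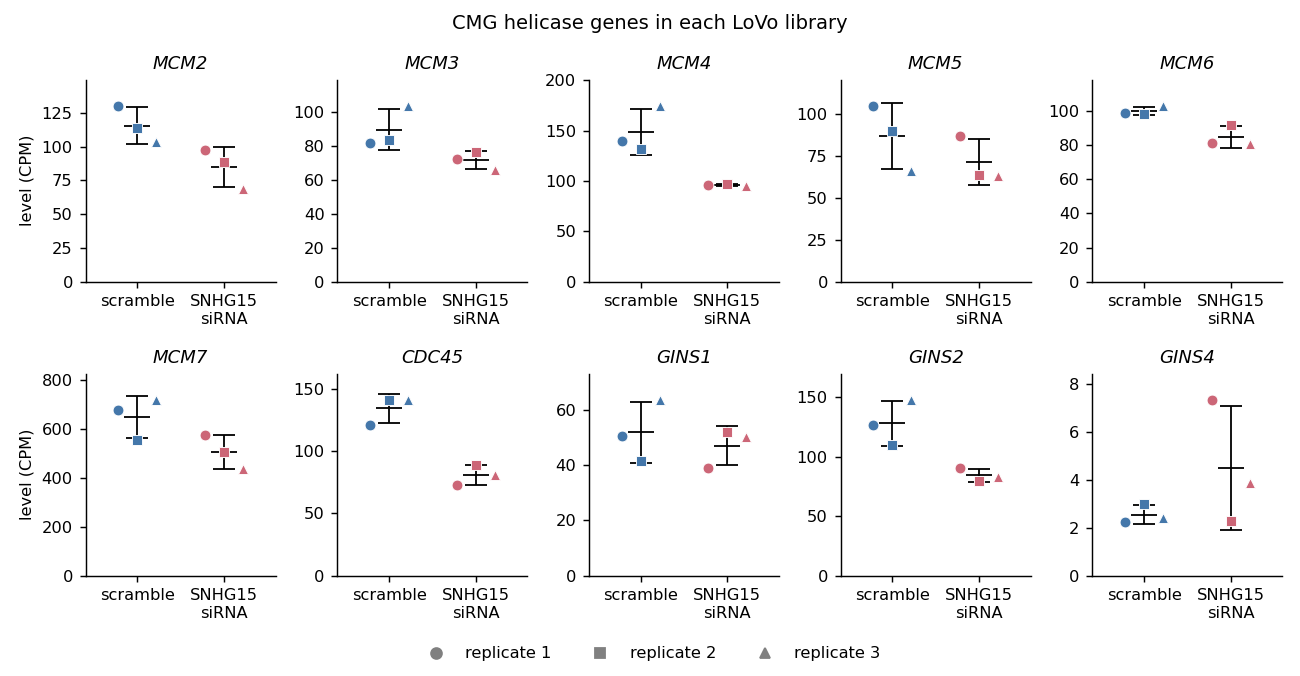
Level in CPM (y axis, from 0, a separate scale for each gene) of the 10 CMG genes in the 3 scramble (blue) and 3 *SNHG15* siRNA libraries (red), with marker shape giving the replicate and black lines the mean and SD. The 3 siRNA points of *CDC45*, *MCM4* and *GINS2* lie clear below the scramble points, while *MCM5*, *MCM7*, *GINS1* and *GINS4* overlap.

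The 6 subunits of the ring all had fitted levels below the scramble level, and *MCM4* alone fell past the threshold. *MCM4* (ENSG00000104738; GRCh37 chromosome 8, 48872745 to 48890720, plus strand) encodes an ATPase subunit that forms, with MCM6 and MCM7, a subcomplex with helicase activity of its own in vitro. Its level was 140, 132 and 174 CPM with scramble siRNA and 95.7, 97.2 and 95.0 CPM with *SNHG15* siRNA. The siRNA values were nearly equal and all below the lowest control. This corresponds to 149 ± 22.7 against 96.0 ± 1.14 CPM (SD, n = 3) and a log2 fold change of -0.63 (SE 0.13, adjusted p = 0.0171 by edgeR). The call rested on particular libraries: the adjusted p was 0.0564 without scramble replicate 1, 0.0750 without scramble replicate 3 and 0.0576 without siRNA replicate 2.

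*MCM2* (ENSG00000073111; chromosome 3, 127317253 to 127341279, plus strand), whose amino-terminal tail binds histones H3 and H4, had the next largest difference in the ring. It measured 130, 113 and 103 CPM in scramble and 97.5, 88.9 and 68.4 CPM in siRNA libraries. The conditions did not overlap, although scramble replicate 3 and siRNA replicate 1 lay close together. The log2 fold change was -0.45 (SE 0.15) with an adjusted p of 0.0976 in edgeR, so it was not called. It passed when the trend of counts with GC content in each library was removed (log2 fold change -0.51, adjusted p = 0.0324).

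*MCM7* (ENSG00000166508; chromosome 7, 99689856 to 99699563, minus strand) was by far the most abundant member. Its level was 675, 554 and 718 CPM with scramble siRNA and 576, 504 and 437 CPM with *SNHG15* siRNA. The value of siRNA replicate 1 exceeded scramble replicate 2, so the conditions overlapped. The log2 fold change was -0.36 (SE 0.14, adjusted p = 0.153 by edgeR), and without siRNA replicate 1 it was -0.46 with an adjusted p of 0.0461.

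*MCM3* (ENSG00000112118; chromosome 6, 52128812 to 52149679, minus strand) and *MCM5* (ENSG00000100297; chromosome 22, 35796127 to 35821424, plus strand) are neighbours in the ring, and MCM5 forms with MCM2 the gate through which DNA enters. *MCM3* had 81.7, 83.7 and 103 CPM in scramble and 72.4, 76.2 and 66.0 CPM in siRNA libraries, a log2 difference of -0.32 (SE 0.13, adjusted p = 0.181 by edgeR) without overlap. *MCM5* had 105, 89.8 and 66.2 CPM in scramble and 87.2, 64.0 and 63.1 CPM in siRNA libraries. Scramble replicate 3 of *MCM5* sat with the lower siRNA libraries, and the difference of -0.30 (SE 0.18, adjusted p = 0.342 by edgeR) was within that spread. It was -0.14 without scramble replicate 1, -0.45 without scramble replicate 3 and -0.47 without siRNA replicate 1.

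*MCM6* (ENSG00000076003; chromosome 2, 136597196 to 136634013, minus strand), the subunit that CDT1 contacts during loading, was the steadiest of the ring in control cells. It had 99.0, 98.0 and 103 CPM in scramble and 81.2, 91.9 and 80.7 CPM in siRNA libraries. The groups did not overlap, but the log2 difference was the smallest of the ring at -0.24 (SE 0.12, adjusted p = 0.251 by edgeR). For *MCM2*, *MCM3* and *MCM6* the library values separated while the fitted test did not pass, and no adjusted p of *MCM3* or *MCM6* fell under 0.05 in any alternative that was run.

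*CDC45* (ENSG00000093009; chromosome 22, 19466980 to 19508135, plus strand) joins the loaded ring in S phase and is generally regarded as a limiting factor for origin firing. It had 121, 141 and 141 CPM in the scramble libraries. In the siRNA libraries it had 72.8, 88.6 and 81.0 CPM, and the highest of these was well under the lowest control. The mean went from 134 ± 11.8 to 80.8 ± 7.91 CPM (SD, n = 3), or 60.1% of the control. *CDC45* had the largest fall of the set (log2 fold change -0.73, SE 0.13, adjusted p = 0.00761 by edgeR) and stood at place 113 of all genes tested when ordered by p. It passed in 5 of the 6 fits that each left out 1 library, and without scramble replicate 2 its adjusted p was 0.0514.

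Of the GINS genes in the set, *GINS2* alone was called. The ratio of *GINS1* to *GINS2* within each library overlapped between the conditions, so a difference between these subunits was not shown. *GINS2* (ENSG00000131153; chromosome 16, 85709804 to 85723679, minus strand), also known as PSF2, had 127, 110 and 148 CPM in scramble and 90.8, 79.8 and 82.7 CPM in siRNA libraries. All 3 siRNA values were below the controls, with 128 ± 19.0 against 84.4 ± 5.69 CPM (SD, n = 3). Its log2 fold change was -0.60 (SE 0.14, adjusted p = 0.0234 by edgeR). That call was lost in 4 of 6 fits without 1 library, with adjusted p of 0.0916 without scramble replicate 1, 0.1004 without scramble replicate 3, 0.0909 without siRNA replicate 2 and 0.0501 without siRNA replicate 3.

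*GINS1* (ENSG00000101003; chromosome 20, 25371644 to 25433336, plus strand), also known as PSF1, measured 50.5, 41.6 and 63.5 CPM in scramble and 39.0, 51.8 and 50.2 CPM in siRNA libraries. The conditions were interleaved. Its log2 difference was -0.12 (SE 0.17, adjusted p = 0.714 by edgeR), which was -0.26 without scramble replicate 2, and the sign turned to 0.03 without scramble replicate 3 and to 0.00 without siRNA replicate 1.

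*GINS4* (ENSG00000147536; chromosome 8, 41386737 to 41402549, plus strand), also known as SLD5, was barely detected. Only 19, 30 and 8 reads were counted with scramble siRNA and 53, 16 and 33 with *SNHG15* siRNA, which is 2.23, 2.98 and 2.42 CPM against 7.35, 2.30 and 3.88 CPM. The highest value came from siRNA replicate 1, and siRNA replicate 2 lay within the controls. The log2 difference was 0.80 (SE 0.38, adjusted p = 0.235 by edgeR), the only one above 0 in the set. Leaving out 1 library moved it to 0.28 without siRNA replicate 1 and to 1.10 without siRNA replicate 2, neither of which passed the test. Of its annotated exon bases, 21.0% are shared with an antisense noncoding gene on the other strand, which had 0 counts.

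**Figure D2:**
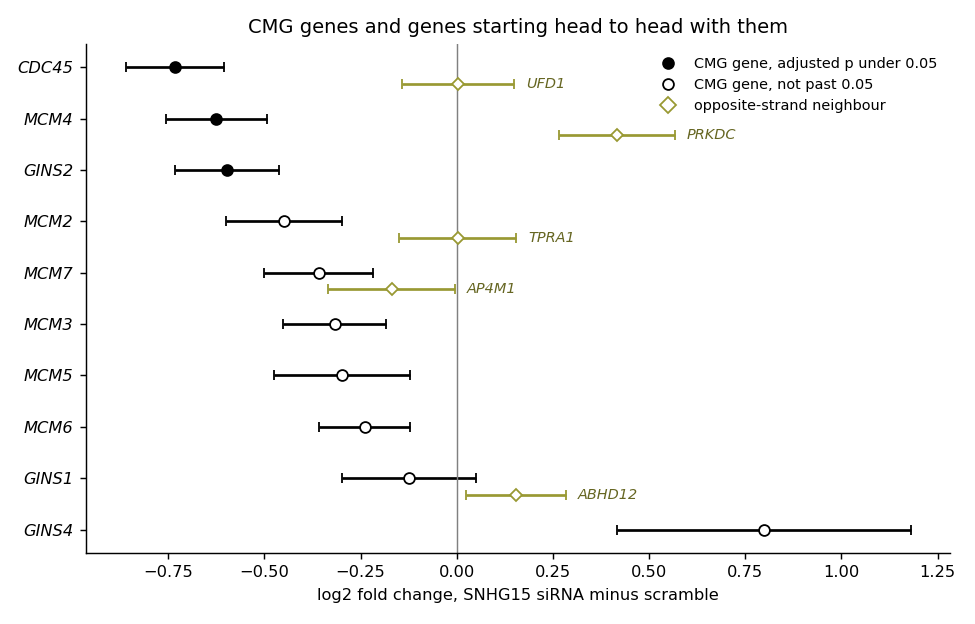
Log2 fold change (x axis, *SNHG15* siRNA minus scramble, bars 1 SE) of the 10 CMG genes, filled where the adjusted p was under 0.05, with the 5 genes that start head to head with a member as diamonds. The filled points *CDC45*, *MCM4* and *GINS2* lie between -0.73 and -0.60, and no neighbour was called.

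The subunits of one complex can be compared within a library, where depth and composition are shared. Against the scramble mean of each gene, the median member deviated by -0.01, -0.06 and 0.11 in scramble replicates 1, 2 and 3, on the log2 scale. In the siRNA libraries the medians were -0.30, -0.36 and -0.50. The number of members below their scramble mean was 8, 9 and 9 of 10 in those 3 libraries, against 7, 7 and 3 in the scramble libraries.

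The siRNA library with the lowest value was not the same for every gene. All 6 MCM genes were lowest in siRNA replicate 3, for *MCM4*, *MCM5* and *MCM6* by less than 1 CPM. *CDC45* and *GINS1* were lowest in siRNA replicate 1, and *GINS2* and *GINS4* in siRNA replicate 2. Among the controls, scramble replicate 3, the shallowest library, held the highest value of 6 members and also the lowest control value of *MCM2* and *MCM5*.

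**Figure D3:**
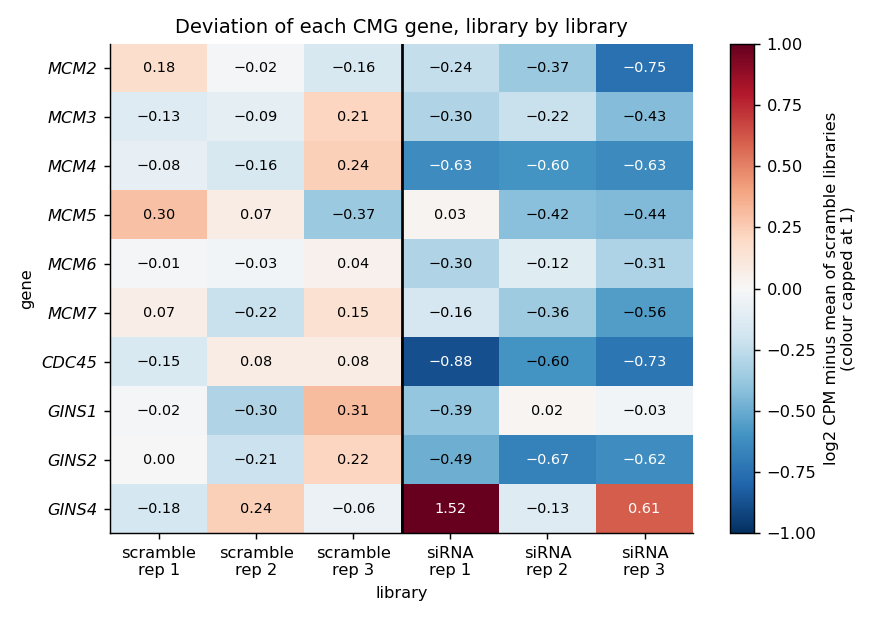
Each cell gives the log2 CPM of 1 CMG gene (y axis) in 1 library (x axis) minus the mean of the 3 scramble libraries, with blue below and red above that mean. The siRNA columns are blue in nearly every gene down to *GINS2*, with *MCM5* in siRNA replicate 1 at 0.03 and *GINS1* in siRNA replicate 2 at 0.02 as the exceptions, and *GINS4* reaches 1.52.

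GC content moved with part of this pattern. The slope of counts on transcript GC content was 0.118 log2 units per 10 percentage points in siRNA replicate 1 and -0.0809 in siRNA replicate 3, and it lay between -0.0331 and 0.00146 in the other 4 libraries. *MCM2*, *MCM5* and *MCM7* have the most GC-rich transcripts of the set, at 57.4%, 56.3% and 55.0%, and they were highest of the siRNA libraries in replicate 1. So were *GINS2* and *GINS4*, with 48.6% and 47.9% GC. After the GC trend was removed, replicate 1 was still the highest siRNA library for *MCM2*, *MCM5*, *MCM7*, *GINS2* and *GINS4*. It became the highest for *MCM4*. The lowest siRNA library of *MCM5* then moved from replicate 3 to replicate 2, with 64.7 and 62.6 CPM, while the other 5 MCM genes stayed lowest in replicate 3. The ratio of the highest to the lowest siRNA library went from 1.43 to 1.30 in *MCM2* and from 1.32 to 1.25 in *MCM7*. It also narrowed in *MCM3*, *MCM5*, *CDC45* and *GINS1*. In the remaining genes it widened: 1.02 to 1.06 in *MCM4*, 1.14 to 1.17 in *MCM6*, 1.14 to 1.20 in *GINS2* and 3.19 to 3.39 in *GINS4*.

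Whether subunits changed unequally was read from the ratio of each pair of members within each library. Of 45 pairs, 11 had ratios that did not overlap between conditions, and 8 of 36 did so without *GINS4*. Among all pairs of tested genes the share was 28.3%, and the members' count stood close to that background. With 3 libraries against 3, the exact two-sided permutation test of a single ratio cannot go below p = 0.1. In 6 of the 8 pairs, *MCM4*, *CDC45* or *GINS2* was set against *MCM3* or *MCM6*, and its ratio to either was lower in the siRNA libraries, as their larger fold changes already imply. The largest log2 difference among those 6 pairs was 0.49, between *MCM6* and *CDC45*, and the smallest was 0.28, between *MCM3* and *GINS2*. *MCM4* and *CDC45* themselves overlapped, with fold changes 0.11 apart, and *MCM4* and *GINS2* were 0.03 apart.

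The make-up of the ring was read per kilobase of transcript, which allows levels to be compared between genes. *MCM7* took 56.2% to 61.2% of the summed MCM2 to MCM7 level in scramble and 58.4% to 61.2% in siRNA libraries. The shares of the other 5 subunits lay between 4.94% and 10.8% in every library, and each of the 6 shares overlapped between the conditions. The mean share of *MCM4* was 9.77% in scramble and 8.26% in siRNA libraries, with ranges of 8.87% to 10.8% in scramble and 7.36% to 9.18% in siRNA libraries.

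The ratio of *GINS2* to the mean of the 6 MCM genes was the only one of the 4 ratios to the ring that did not overlap, at 0.770 to 0.871 in scramble and 0.645 to 0.763 in siRNA libraries. The gap between those ranges was narrow. Among all pairs of tested genes, 28.3% had ratios that did not overlap, so this separation is not read as particular to *GINS2*. The *CDC45* ratio went from 0.930 to 1.26 in scramble and from 0.678 to 0.949 in siRNA libraries, with a small overlap. *GINS1* gave 0.211 to 0.271 against 0.207 to 0.335.

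The subunits were far from equal in level. In scramble libraries *MCM7* stood at 214 ± 28.1 CPM per kb (SD, n = 3), which was 6.41 to 7.88 times the mean of the other 5 MCM genes. *CDC45* followed at 64.9 ± 5.69, *GINS2* at 48.8 ± 7.24, *MCM4* at 35.5 ± 5.42 and *MCM2* at 33.6 ± 3.94 CPM per kb. *MCM3*, *MCM6* and *MCM5* came next at 27.9 ± 3.74, 26.6 ± 0.679 and 25.2 ± 5.63 CPM per kb. From *MCM4* to *MCM5*, each gene's range over the libraries overlapped that of its neighbour in this order. *MCM7*, *CDC45* and *GINS2* were each separated from the next gene, the last by a margin of only 41.8 against 41.7 CPM per kb. *GINS1* was lower at 14.3 ± 3.04 and *GINS4* far below at 0.657 ± 0.102 CPM per kb.

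With *SNHG15* siRNA the order at the top stayed *MCM7*, *CDC45* and *GINS2*, at 167, 39.0 and 32.1 CPM per kb. The 5 remaining MCM genes lay between 20.7 and 24.7 CPM per kb. These levels depend on the transcript taken for the length: over all annotated exons of a gene, which for *MCM4* is 9852 bp rather than 4183 bp, *MCM4* was at 15.1 and *MCM7* at 131 CPM per kb in scramble libraries.

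**Figure D4:**
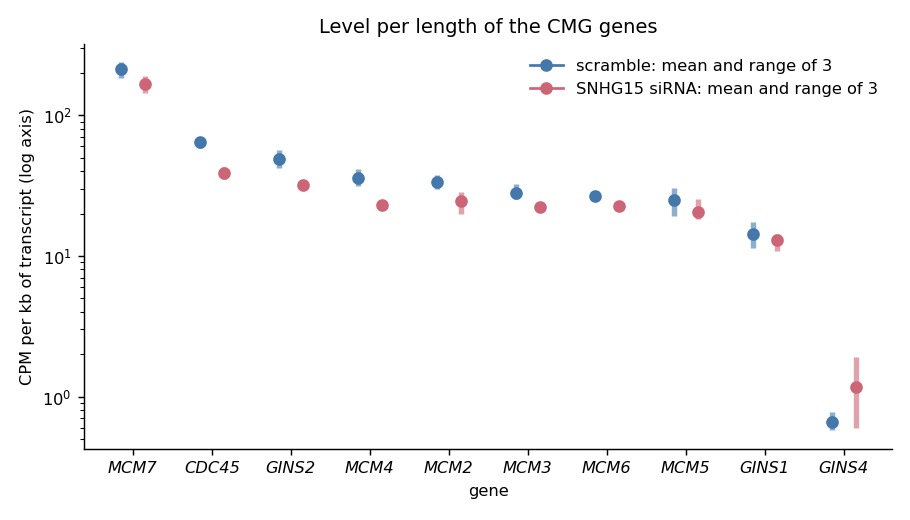
Level in CPM per kb of transcript (y axis, log scale) of the 10 CMG genes, ordered by the scramble mean, with points for the mean and bars for the range of the 3 scramble (blue) and 3 *SNHG15* siRNA libraries (red). *MCM7* is at 214 and *GINS4* at 0.657 CPM per kb in scramble libraries, and the genes from *MCM4* to *MCM5* form a near plateau.

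Position in the genome adds a comparison at the level of the promoter. A protein-coding gene on the opposite strand starts within 1000 bp of 5 of the members. These neighbours were *TPRA1* (143 bp from *MCM2*), *PRKDC* (7 bp from *MCM4*), *AP4M1* (391 bp from *MCM7*), *UFD1* (255 bp from *CDC45*) and *ABHD12* (173 bp from *GINS1*). None of the 5 was called by edgeR's quasi-likelihood test or by DESeq2, and 1 of them, *PRKDC*, had an unadjusted p under 0.05.

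*PRKDC* encodes the catalytic subunit of the DNA-dependent protein kinase of end joining, and starts beside *MCM4*. It had 83.8, 86.5 and 74.1 CPM in scramble and 127, 114 and 86.4 CPM in siRNA libraries. The conditions all but separated, with siRNA replicate 3 just below scramble replicate 2. Its log2 difference was 0.42 (SE 0.15, adjusted p = 0.123 by edgeR). *UFD1*, a cofactor of the p97 unfoldase that extracts CMG from chromatin, shares a start region with *CDC45*, the member with the largest fall. Its mean was 208 ± 33.5 CPM in scramble and 208 ± 27.7 CPM in siRNA libraries (SD, n = 3), a log2 difference of 0.00 (SE 0.15).

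Reads of overlapping genes could enter the members' counts where strand was not used, and the setting is not given in the sources used here. *AP4M1* shares 392 bp, or 7.90%, of the *MCM7* exons on the opposite strand, and had 1241 counts in all libraries together against 25091 for *MCM7*. *NINL* shares 259 bp, or 3.23%, of the *GINS1* exons. The largest share was in *MCM2*, where an antisense noncoding gene covers 1113 bp, or 23.6%, of the exons. That gene has no row in the count table, so its reads could not be counted. The miR-25, miR-93 and miR-106b genes lie within *MCM7*, and their rows held 1, 0 and 0 counts, so these libraries carry no measure of that cluster.

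The genes that work before, beside and after CMG were described in 8 lists, without a set test. Their counts stand beside the shares of all genes tested, of which 2.23% were called lower and 3.13% higher by edgeR. An unadjusted p under 0.05 was reached by 22.5% of all genes, and by 10.5% on the lower side. In the licensing list, which loads the ring, 8 of 10 genes had fitted levels below the scramble level, with a median log2 fold change of -0.39, and 1 fell. That gene was *CDT1*, the loading factor that brings the MCM ring to origins (-0.54, SE 0.12, adjusted p = 0.0240 by edgeR). It had 172, 187 and 178 CPM in scramble and 135, 126 and 109 CPM in siRNA libraries, without overlap. No list gene was called without siRNA replicate 2 or 3 or without any 1 of the scramble libraries, and 2 were called without siRNA replicate 1. *ORC6*, a subunit of the origin recognition complex, had a log2 difference of -0.58 with an adjusted p of 0.0520, and *CDC6*, the loading ATPase, -0.42 with 0.0961.

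In the activation list, of factors that turn the loaded ring into CMG, 8 of 10 genes were below the scramble level and the median was -0.29. None was called by edgeR or DESeq2, with 3 at an unadjusted p under 0.05, while removing the GC trend gave 1 call. *GINS3*, the remaining GINS subunit, had 38.8, 36.7 and 41.1 CPM in scramble and 30.1, 31.6 and 31.9 CPM in siRNA libraries, without overlap. Its log2 difference was -0.31 (SE 0.13, adjusted p = 0.193 by edgeR), between those of *GINS1* and *GINS2*. *DONSON*, a scaffold that delivers GINS to the ring, had -0.35 (adjusted p = 0.139), and *RECQL4*, a helicase needed for initiation, had -0.42 (adjusted p = 0.171).

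Of 15 replisome partners, 12 were below the scramble level, with a median of -0.31 and no call by edgeR (7 lower and 1 higher at an unadjusted p under 0.05). DESeq2 called 1, *CLSPN*, which was higher. *TIMELESS*, of the fork protection complex, and *POLE*, the catalytic subunit of the leading-strand polymerase, had log2 differences of -0.41 (adjusted p = 0.102) and -0.52 (adjusted p = 0.126). *CLSPN*, which encodes the checkpoint mediator claspin, was on the other side. It had 23.0, 22.9 and 16.9 CPM in scramble and 65.0, 36.1 and 26.1 CPM in siRNA libraries, all of them above the controls, with a log2 difference of 0.99 (SE 0.27, adjusted p = 0.0534 by edgeR).

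The 11 genes of CMG disassembly did not share the low median. It was 0.00, with 5 genes below the scramble level and none called by edgeR (2 at an unadjusted p under 0.05, and none called by DESeq2). *FAF1* and *UBXN7*, both p97 cofactors, had differences of -0.38 (adjusted p = 0.0930) and 0.29 (adjusted p = 0.239). *LRR1*, the substrate receptor of the ligase that ubiquitylates MCM7 at termination, had -0.34 (adjusted p = 0.201). Of the MCM paralogs, which form a helicase of their own in homologous recombination, *MCM8* was at -0.55 (adjusted p = 0.0507) and *MCM9* at -0.09 (adjusted p = 0.875). Neither was called by DESeq2, and *MCM8* had an unadjusted p under 0.05.

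Of the 17 E2F and RB genes, 3 fell by edgeR and 2 by DESeq2, and none rose by either, with a list median of -0.11 and 3 genes higher at an unadjusted p under 0.05. The number called was 1 without scramble replicate 1 or 3 and 0 without scramble replicate 2 or siRNA replicate 2. The genes that fell were *MYBL2*, a transcription factor that acts with the MuvB complex (-0.72, adjusted p = 0.0110), *E2F4*, a mostly repressive E2F (-0.56, adjusted p = 0.0259), and *RBL1*, which encodes p107 (-0.54, adjusted p = 0.0459). *E2F1*, the best known activator of this gene class, had 46.3, 41.9 and 42.3 CPM in scramble and 45.9, 36.97 and 30.3 CPM in siRNA libraries, with overlap and an adjusted p of 0.475 by edgeR.

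Outside the CMG set, 624 tested genes held the E2F-type letters of the windows shown above in a RefSeq promoter. They had a median of -0.05 on the log2 scale, and 3.53% were called lower and 2.08% called higher. Among 8483 tested genes without the letters the median was 0.00, with 2.26% called lower and 2.97% higher. *MCM4*, *MCM5* and *GINS4* were not part of this search.

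Other genes that peak at G1/S resembled the CMG genes in their median. Of 27 tested, 23 were below the scramble level, the median was -0.35, and 6 fell while 1 rose. Over all genes tested, 2.23% were called lower and 3.13% higher. *RRM2*, the small subunit of ribonucleotide reductase (-0.77, adjusted p = 0.00507), *CHAF1B*, a subunit of the histone chaperone CAF-1 (-0.81, adjusted p = 0.00569), and *CDCA7* (-0.71, adjusted p = 0.00761) led the fall. The gene that rose was *ATAD2* (1.01, adjusted p = 0.0227). Without any 1 scramble library 4 genes of this list were called, and without siRNA replicate 1 there were 11. Of 51 G2/M genes tested, 39 were below the scramble level with a median of -0.18. In that list 8 fell, among them *CKS1B*, a cofactor of cyclin-dependent kinases (-1.19, adjusted p = 0.00372), *CCNB2*, which encodes cyclin B2 (-0.80, adjusted p = 0.00505), and *HMGB2* (-1.33, adjusted p = 0.00569), and 1 rose, *SMC4* (0.70). That count of 9 was 3, 4 and 5 without scramble replicates 1, 2 and 3 and 5 without siRNA replicate 2. The genes of both lists were counted one by one and no difference between the lists was tested.

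**Figure D5:**
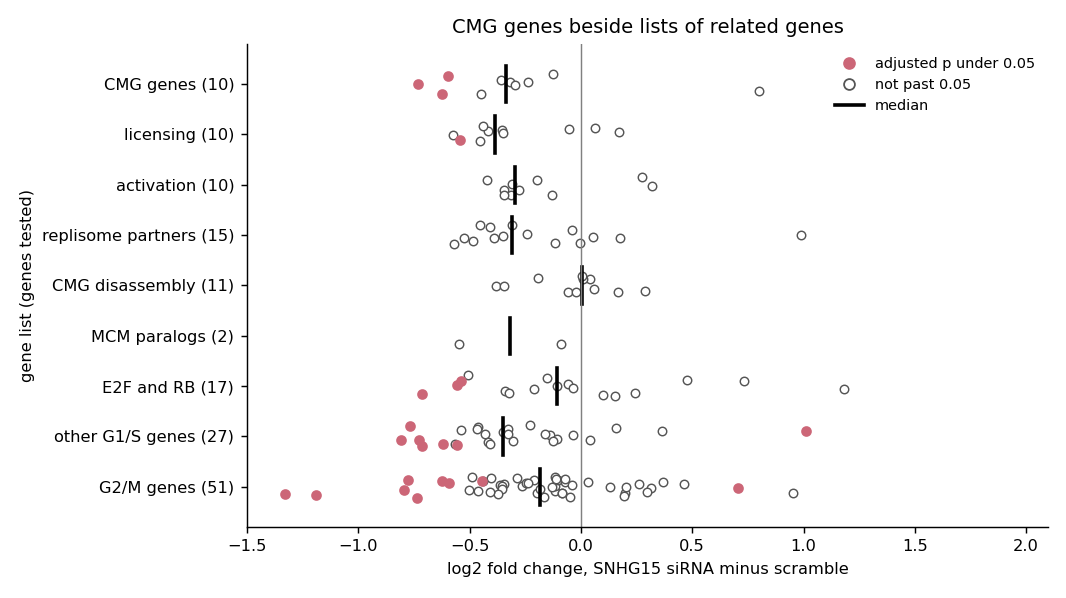
Log2 fold change (x axis, *SNHG15* siRNA minus scramble) of every tested gene in the CMG set and in 8 related lists (y axis, number tested in brackets), filled where the adjusted p was under 0.05, with a black bar at the list median. The medians of the CMG, licensing, activation, replisome and other G1/S lists lie between -0.39 and -0.29, and that of the disassembly list is at 0.00.

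The closest profiles outside the set were found from the root mean square difference to the members' mean profile over the 6 libraries, after each gene was centred on its own mean. The 5 nearest genes were *SEPHS1* (0.0301), *SNRPD1* (0.0332), *SLC25A15* (0.0352), *FASTKD2* (0.0359) and *ZMYND19* (0.0367), in log2 units. The members lay from 0.102 (*MCM7*) to 0.665 (*GINS4*) from that mean profile. The 5 genes were picked as the smallest differences among all tested genes outside the set. Their being nearer than any member follows largely from that choice and says nothing on coordination. The mean profile also includes the barely detected *GINS4*, which draws it away from the other members. *SNRPD1*, a core spliceosomal protein, had 345, 347 and 354 CPM in scramble and 302, 275 and 270 CPM in siRNA libraries.

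Length and fold change were also read together. The members' transcripts run from 2072 to 4183 bp, and the 4342 other tested genes in that range had a median of -0.02 on the log2 scale, and 2.49% of them were called lower.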

How the data were processed

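The deposited table holds whole-number read counts for each gene, not normalized by the authors. Per the labels, the submitters' processing notes name STAR, featureCounts and hg19, while the study's methods name bowtie2 and hg19; versions, annotation and the counting settings for strand and multi-mapping reads are not given in the sources used here. The kit was TruSeq Stranded mRNA. The labels give TRIzol for RNA extraction and the methods a Maxwell kit. Groups and replicate numbers came from the sample labels, and 0 count columns were left unassigned. Replicates differed beyond sampling noise (chi-square per degree of freedom at least 4.34).

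The analysis used edgeR 4.0.16 under R 4.3.3. Of 63677 genes, 23675 had counts, and 12507 passed filterByExpr (minimum count 10, total 15). They were scaled by TMM and tested by the quasi-likelihood test, 3 *SNHG15* siRNA against 3 scramble libraries, with Benjamini-Hochberg adjustment and a threshold of 0.05. The script was tested on simulated data. Positions and lengths (longest coding transcript) came from GENCODE release 44 on GRCh37, promoters from RefSeq on GRCh38.p14. *UHRF1* was not matched. Alternatives were DESeq2 1.42.0, RLE and upper-quartile factors, other filters, a loess GC offset (span 0.3), a replicate block and leaving out each library.

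The members and gene lists were chosen with earlier results of these data known, so no count is independent support. Named genes were all members, *SNHG15*, *GINS3*, the up to 3 genes with the smallest p in each list, head-to-head genes and the 5 nearest profiles. *E2F1*, *ATAD2* and *SMC4* were named after their values were seen.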

Additional observations from a re-analysis of the deposited data

How the results depend on the processing

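Of the CMG genes, *CDC45*, *MCM4* and *GINS2* were called in all 9 fits that kept the 6 libraries, and *MCM2* joined them without a filter on low counts, with the GC offset and with the GC offset and replicate block. The 3 CMG calls became 1 to 5 when 1 library was left out (the same range for those called lower), and the median of the CMG genes ran from -0.47 to -0.26. *GINS1* turned to 0.026 without scramble replicate 3 and to 0.00 without siRNA replicate 1. The width of the range of CMG fold changes, 1.53, was 0.94 to 1.90 in those fits and 0.61 when each library had to hold 10 counts or more, which drops *GINS4*.

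The same-numbered libraries did not all deviate together (r across genes -0.0659, 0.143 and -0.0348 for numbers 1, 2 and 3). The value of number 2 was the highest of all combinations, but not every library correlated best with its own number. The numbers were read as sample names only. With 3 libraries for each condition, such correlations cannot exclude a shared batch. A replicate block gave 543 calls over all genes and 3 CMG calls, and block and GC offset 880 and 4.

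The 671 calls over all genes became 1312 without a filter, 1022 with the GC offset and 139 to 812 without 1 library. The licensing list had 2 calls with DESeq2, RLE factors, no filter, the GC offset, or block and GC offset, and 0 to 2 without 1 library. The activation list had 1 without a filter, with the GC offset, or block and GC offset, and 0 to 1 without 1 library. The replisome list had 1 with DESeq2, upper-quartile factors, the GC offset, the replicate block, or both, 2 without a filter, and 0 to 2 without 1 library. The paralogs had 1 without a filter, with protein-coding genes only or with the GC offset, and 0 to 1 without 1 library. Other G1/S genes had 13 without a filter, 12 with the GC offset, 11 with block and GC offset, and 4 to 11 without 1 library. E2F and RB genes had 0 to 3 and G2/M genes 3 to 10 without 1 library.

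List medians without 1 library ran from -0.40 to -0.33 (licensing), -0.35 to -0.25 (activation), -0.32 to -0.24 (replisome), -0.11 to 0.058 (disassembly), -0.39 to -0.24 (paralogs) and -0.22 to -0.18 (G2/M). With a minimum of 10 counts in each library the paralog value was -0.52. It came from *MCM8* alone, as *MCM9* fell below that minimum. The G2/M median was -0.14 with upper-quartile factors. The cause of the other shifts was not tested. *GINS4* had 8 to 53 counts a library, and its fold change was 0.28 to 1.10 without 1 library.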
